A study of Mus musculus with 56 samples.

Results

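The first 4 h after food was withdrawn from day-fed mice were examined in gastrocnemius, a calf muscle of mostly fast fibres, by comparing RNA at ZT16 with RNA at ZT12 (ZT, zeitgeber time, counts hours from lights on). The comparison used 8 of the 56 libraries of the series, 4 at each time, and was made gene by gene. All mice were female C57BL/6J, 9 weeks old, housed under a light and a dark phase of 12 h each, and had 7 days of free chow before 7 days of restricted feeding. Under daytime-restricted feeding (DRF) food was given in the light phase, so that ZT12 is taken as the end of feeding and ZT16 lies in the fast, early in the dark phase in which mice are active. The labels name the phases and not the clock hours of food access. In the reference regimen, nighttime-restricted feeding (NRF), the same clock step from ZT12 to ZT16 opens the meal, and the step from ZT0 to ZT4 opens the fast; each of these 4 groups also had 4 libraries. The labels do not say that every library came from a separate mouse. The p-values thus rest only on the spread between libraries of a group, pooled over all 14 groups of the series, which may be technical.

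When feeding stops, insulin falls and muscle turns from glucose to fatty acids. Pyruvate dehydrogenase kinases close the entry of pyruvate into the mitochondrial cycle, PPAR receptors sense fatty acids and switch on genes of fat use, and FoxO factors, freed from insulin signalling, switch on genes of protein breakdown. Glucocorticoids, which in mice reach their daily high around lights off, act on many of the same genes. The circadian clock of muscle, built from the activators Arntl and Clock and the repressors of the Per, Cry and Nr1d families, adds a rhythm of its own.

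The 8 libraries held 30153054 to 36183625 recovered reads. Levels are CPM, reads per 1000000 of the authors' library size, and compare the same gene between libraries. All 14 skeletal muscle markers were present, with the creatine kinase Ckm at 21639.5 CPM or more in each of the 8 libraries. Replicate 1 of ZT16 stood apart: its red blood cell markers summed to 1677 CPM against 325 to 674 at ZT12, and its Schwann cell markers to 587 against 109 to 253. Adipocyte markers without Car3, which muscle also makes, summed to 165, 179, 268 and 293 CPM at ZT12 and to 702, 430, 262 and 420 at ZT16. Their defining gene Adipoq stood at 5.77 to 16.5 CPM at ZT12 and at 52.9, 31.6, 13.0 and 34.4 CPM at ZT16, higher than any ZT12 library in 3 of 4. Smooth muscle markers summed to 59.5 to 69.5 CPM at ZT12 and to 97.9 to 128 at ZT16, without overlap. Slow-fibre markers summed to 485, 2872, 1315 and 233 CPM at ZT12 and to 1293, 3189, 735 and 851 at ZT16, overlapping; 7 of the 8 genes had a log2 change above 0 (median 0.83) and none passed. In bulk tissue, more cells of a type and more RNA per cell cannot be told apart.

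**Figure D1:**
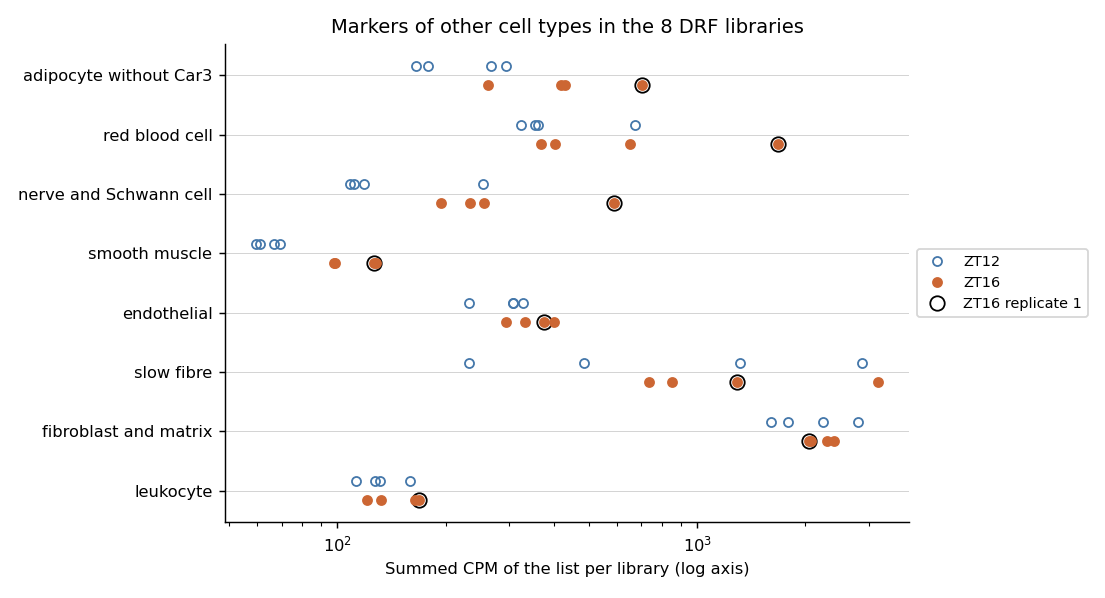
Summed CPM of 8 marker lists (log x axis) in the 4 libraries of DRF ZT12 (open circles) and the 4 of DRF ZT16 (filled circles), with ZT16 replicate 1 ringed. Smooth muscle markers do not overlap between the times, and the ringed library is the highest for adipocyte (702 CPM), red blood cell (1677 CPM) and Schwann cell (587 CPM) markers.

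Within 4 h, 1241 of 12025 genes (10.3%) passed the threshold (limma on log2(CPM + 1), Benjamini-Hochberg adjusted p under 0.05). The loss of food and the move in clock time into the dark phase coincide in this comparison and cannot be told apart. Of these 572 rose (4.76% of genes tested) and 669 fell (5.56%). The changes were mostly small, with a median log2 change of 0.33 among the genes that rose and -0.52 among those that fell, against 0.03 over all genes. At least a doubling was called for 35 genes and at least a halving for 21. The 4 and 4 values did not overlap for 1053 of the 1241 genes called, and for 18.4% of all genes tested. The balance of the directions rests on the scaling: with total read counts in place of the authors' library sizes 151 genes rose and 803 fell. Leaving out 1 library gave 1546 calls without replicate 4 of ZT16 and 433 to 823 without any of the other 7 (465 without replicate 3 and 637 without replicate 2 of ZT12, 678 and 823 without its replicates 4 and 1, and 433, 595 and 790 without replicates 2, 3 and 1 of ZT16).

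The largest rise was in Pdk4 (gene 27273, chromosome 6, 5483351 to 5496278 on GRCm38.p6), the kinase that shuts pyruvate dehydrogenase and so spares glucose. It stood at 22.1, 25.95, 27.0 and 37.5 CPM at ZT12 and at 340, 681, 964 and 126 CPM at ZT16. Every ZT16 library was above every ZT12 library, though the ZT16 values ranged widely. The log2 change was 3.84 ± 0.76 (SE; adjusted p = 0.00198). The phosphatase with the opposite action, Pdp1 (gene 381511, chromosome 4, 11958183 to 11966450), fell over the same 4 h. Its levels were 121, 126, 151 and 119 CPM at ZT12 and 54.8, 56.9, 50.5 and 62.4 CPM at ZT16, a log2 change of -1.19 ± 0.19 (adjusted p = 0.000156). The spread of Pdp1 within each time was small beside the gap between them. Pdp1 also fell over the same clock hours in NRF, by 0.70 on the log2 scale (adjusted p = 0.0427).

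Of 19 tested PPAR fasting targets, genes switched on by the fatty acid receptors, 4 rose and none fell; the list's median log2 change was 0.10. The background is 4.76% of genes rising. Ucp3 (gene 22229, chromosome 7, 100472991 to 100486432), a carrier of the inner mitochondrial membrane, went from 26.2, 22.9, 17.6 and 26.4 CPM to 83.1, 149, 213 and 87.2 CPM (2.37 ± 0.38, adjusted p = 0.000146). Angptl4 (gene 57875, chromosome 17, 33774900 to 33781575), which blocks lipoprotein lipase from outside the cell, went from 0.404, 0.355, 0.176 and 0.773 CPM to 5.90, 9.64, 15.7 and 1.49 CPM. Its log2 change of 2.40 ± 0.56 (adjusted p = 0.00777) understates the ratio of the means, 19.2, because of the added 1. Cpt1a, a gate for fatty acids into mitochondria, rose by 0.88 ± 0.22 (adjusted p = 0.0111, and 0.0539 without replicate 3 of ZT16). In Pdk4, Ucp3, Angptl4 and Cpt1a alike, replicate 3 was the highest ZT16 library.

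Few genes of fat burning itself passed, where 10.3% of all genes tested did. Of 30 tested genes of fatty acid uptake and oxidation only Cpt1a passed, and the muscle form Cpt1b (0.06), the trifunctional enzyme Hadha (0.10) and the transporter Cd36 (-0.08) had log2 changes near 0. Of 27 tested subunits and partners of oxidative phosphorylation none passed, by limma at an adjusted or an unadjusted p under 0.05 (0 genes), with log2 changes of -0.20 to 0.17. Other targets of the PPAR list, such as Plin2 (0.20) and Plin5 (-0.13) of the lipid droplet and Lpl (-0.09), did not pass. With the mean level of slow-fibre markers as a covariate, an alternative chosen after seeing the data, Plin5 stood at -0.44 and Lpl at -0.42, and neither passed.

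**Figure D2:**
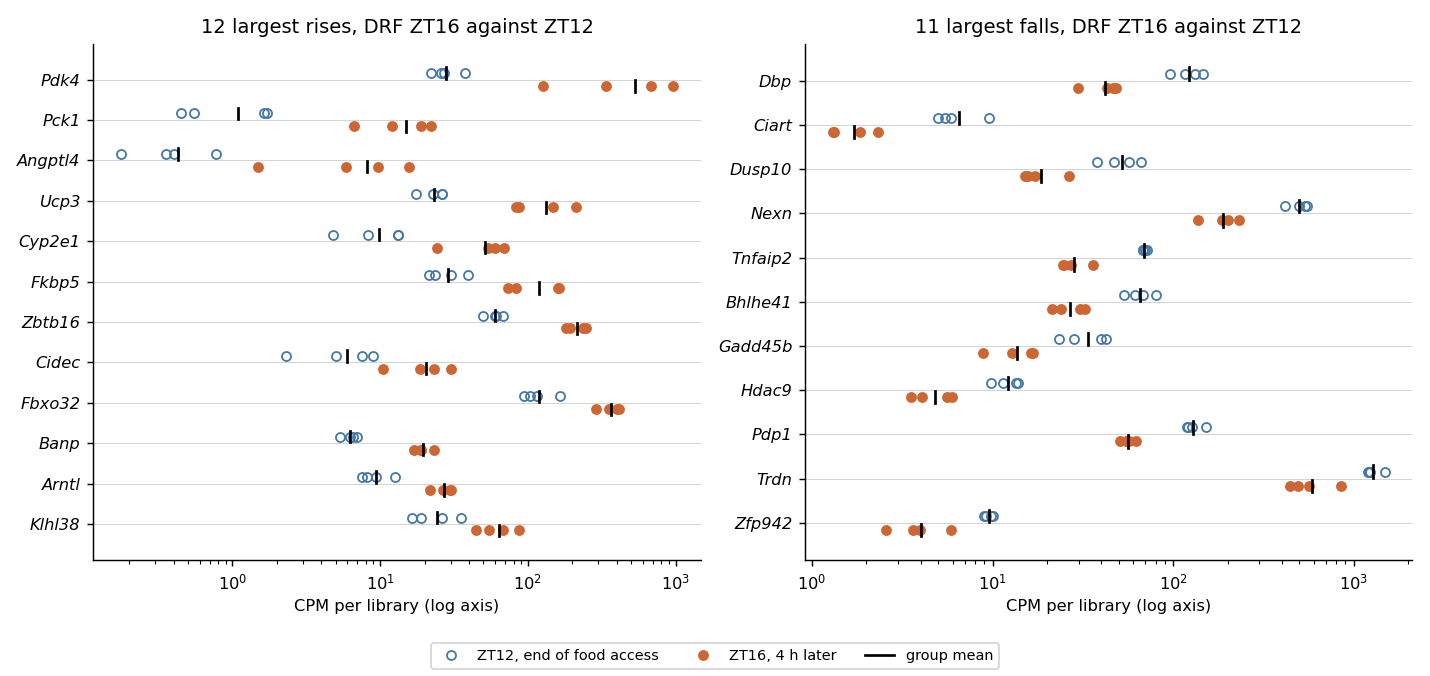
CPM per library on a log x axis for the 12 largest rises (left) and the 11 largest falls (right) among genes past the threshold whose groups do not overlap. Open circles are the 4 libraries of DRF ZT12, filled circles the 4 of DRF ZT16 and bars the group means. Pdk4 spans 126 to 964 CPM at ZT16 against 22.1 to 37.5 at ZT12, while genes such as Pdp1 and Banp are tight in both groups.

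Of 17 tested genes of the lipid droplet and lipolysis, 6 rose and 1 fell, where 4.76% of all genes rose and 5.56% fell. The list's median was 0.39 and came down to 0.09 over the alternatives. The number that rose was 3 without replicate 2 of ZT12, and 4 without replicate 1 of ZT16 or with fat cell markers as a covariate, an alternative chosen after seeing the data. Plin4, a droplet coat protein of muscle and fat, went from 356, 273, 262 and 254 CPM to 412, 722, 456 and 638 CPM (0.93 ± 0.18, adjusted p = 0.00198). Lipe, hormone-sensitive lipase, went from 14.01, 13.8, 18.4 and 19.0 CPM to 42.1, 37.3, 25.1 and 28.3 CPM (0.97 ± 0.20, adjusted p = 0.00319). Hilpda, an inhibitor of the lipase Pnpla2, fell by 0.37 on the log2 scale (adjusted p = 0.0188). Several genes of this group are also made by fat cells. Summed fat cell markers without Car3 ran higher at ZT16, with overlap (165 to 293 CPM at ZT12, 262 to 702 at ZT16). Cidec is itself in that sum, and Adipoq did not pass by limma (adjusted p = 0.072). The droplet protein Cidec stood at 5.04, 2.32, 7.55 and 8.91 CPM at ZT12 and at 30.002, 23.1, 10.4 and 18.7 CPM at ZT16. Its lowest library was replicate 2 at ZT12 and replicate 3 at ZT16, and so was that of Adipoq. Calls ended for Cidec without replicate 2 of ZT12 or replicate 1 or 2 of ZT16 (adjusted p up to 0.0972) and for Hilpda without replicate 4 of ZT12 or replicate 2 of ZT16 (adjusted p up to 0.0669).

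With that fat covariate, the mean level of Adipoq, Plin1, Cfd and Retn, the log2 change of Cidec went from 1.66 (adjusted p = 0.0234) to 0.46 (adjusted p = 0.0958). That of Pck1, the enzyme that makes glycerol phosphate in fat and glucose in liver, went from 2.86 (adjusted p = 0.00198) to 1.94 (adjusted p = 0.00585). The oxidase Cyp2e1 went from 2.27 (adjusted p = 0.00806) to 1.02 (adjusted p = 0.018). Lipe went from 0.97 (adjusted p = 0.00319) to 0.65 (adjusted p = 0.0106). With the same covariate Pdk4 stood at 4.10, Ucp3 at 2.59 and Angptl4 at 2.33, with adjusted p-values of 0.00117, 6.47e-05 and 0.00725. Genes of fatty acid and triglyceride synthesis had a median of 0.40, which was 0.17 without replicate 1 of ZT16 and 0.05 with the fat covariate, under which 2 rose and 2 fell. Without it 2 of 22 passed, both of them rises, where 4.76% of all genes rose. Lpin1, a phosphatidate phosphatase, rose by 0.71 ± 0.16 (adjusted p = 0.00464) and Pnpla3, a lipase-like protein, by 0.96 ± 0.27 (adjusted p = 0.0215, and 0.067 with the fat covariate). The call for Pnpla3 also ended without replicate 2 or 3 of ZT12 or replicate 2 or 4 of ZT16 (adjusted p up to 0.0804).

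Of 29 tested genes of FoxO factors, their targets and muscle atrophy, 6 rose and none fell. Of all genes 4.76% rose and 5.56% fell. The list's median was 0.19, and 4 of its genes rose with total-count scaling. The ubiquitin ligase Fbxo32 (gene 67731, chromosome 15, 58175879 to 58214892), also called atrogin-1, went from 94.9, 164, 116 and 104 CPM to 402, 417, 357 and 287 CPM (1.62 ± 0.30, adjusted p = 0.00107). Transcripts of the factors themselves rose too, Foxo3 from 43.1, 40.2, 38.9 and 37.2 CPM to 54.1, 80.9, 60.6 and 72.4 CPM (0.72 ± 0.12, adjusted p = 0.000227). Foxo1 went from 29.4, 25.7, 25.3 and 24.6 CPM to 34.2, 91.8, 48.7 and 67.8 CPM (1.09 ± 0.24, adjusted p = 0.00466). In both, replicate 1 of ZT16 was the lowest and replicate 2 the highest of that time. The other classical ligase of atrophy, Trim63, had a log2 change of 0.54 and did not pass.

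Klhl38, an adaptor of ubiquitin ligases found in muscle, went from 16.5, 35.0, 26.2 and 19.0 CPM to 54.2, 86.6, 68.2 and 44.7 CPM (1.37 ± 0.32, adjusted p = 0.00648). Of 33 tested proteasome genes none was higher and 2 fell, where 4.76% of all genes rose and 5.56% fell. Psmd12 fell by 0.29 and Psmc6 by 0.64 on the log2 scale (adjusted p = 0.0247 and 0.0298). Both calls ended without replicate 3 or 4 of ZT12 or replicate 1 or 2 of ZT16, and that of Psmc6 also without replicate 2 of ZT12 or replicate 3 of ZT16 (adjusted p up to 0.0878).

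Of 22 tested glucocorticoid targets, 6 rose and none fell, where 4.76% of all genes rose and 5.56% fell. The list's median was 0.38. Fkbp5 (gene 14229, chromosome 17, 28398753 to 28486149), a chaperone that restrains the receptor, went from 39.2, 23.6, 21.6 and 30.2 CPM to 72.8, 162, 83.1 and 160 CPM (1.97 ± 0.39, adjusted p = 0.00198). Zbtb16 (gene 235320, chromosome 9, 48651797 to 48836225), a transcription factor induced by steroids, went from 49.96, 61.2, 60.05 and 67.8 CPM to 193, 237, 180 and 248 CPM (1.82 ± 0.25, adjusted p = 9.45e-06). The ZT16 values of Zbtb16 lay far above those of ZT12 and close together. Glul, glutamine synthetase, went from 360, 287, 249 and 301 CPM to 629, 961, 575 and 785 CPM (1.28 ± 0.22, adjusted p = 0.000247). Klf15, a factor that drives amino acid breakdown in muscle, rose by 0.64 ± 0.14 (adjusted p = 0.00322), while 1 of 21 genes of amino acid breakdown and glutamine passed, and that 1 was Glul. The glucocorticoid targets Per1 (-0.47), Tsc22d3 (0.61) and Sgk1 (0.11) did not pass. Angptl4, Klf15 and Glul each stand in this list and in at least 1 other.

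Insulin signalling and glycogen genes moved in both directions, where 4.76% of all genes rose and 5.56% fell. Of 24 tested insulin signalling genes 4 rose and 1 fell. None rose without replicate 2 of ZT16, and with total-count scaling 1 rose and 2 fell. Among those that rose, Rptor and Mtor of the growth complex changed by 0.34 ± 0.09 and 0.33 ± 0.10 (adjusted p = 0.0169 and 0.0336). Both calls ended without replicate 4 of ZT12, without replicate 2 of ZT16 and with total-count scaling (adjusted p up to 0.128 and 0.168). The regulatory subunits that hold glycogen phosphatase on its substrate went apart. Ppp1r3c went from 432, 377, 304 and 689 CPM to 766, 1527, 983 and 1312 CPM (1.36 ± 0.29, adjusted p = 0.00317), whereas Ppp1r3a, the main form of muscle, went from 403, 428, 381 and 357 CPM to 237, 177, 144 and 316 CPM (-0.90 ± 0.28, adjusted p = 0.0336). The call for Ppp1r3a ended without any 1 replicate of ZT12, or without replicate 2 or 3 of ZT16 (adjusted p up to 0.137). These were the only genes to pass among 30 tested of glycolysis and glycogen.

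Of the 26 lists, the clock list had the largest share of members past the threshold. Of 19 tested clock genes 2 rose and 7 fell, where 4.76% of all genes rose and 5.56% fell. The list's median was -0.43, and 4 fell without replicate 3 of ZT12. Arntl (gene 11865, chromosome 7, 113178471 to 113314126), the activator, went from 8.09, 9.35, 7.55 and 12.6 CPM to 29.8, 21.8, 30.04 and 26.8 CPM (1.45 ± 0.21, adjusted p = 2.19e-05). Nfil3, a repressor of the output genes, went from 17.5, 17.1, 17.5 and 23.2 CPM to 53.4, 62.2, 33.6 and 40.3 CPM (1.26 ± 0.25, adjusted p = 0.00198). Both are textbook targets of the Nr1d repressors, which act at ROR elements. Nr1d1, uncertain because it shares reads, fell from 97.0, 89.0, 151 and 95.3 CPM to 70.4, 43.0, 63.9 and 56.2 CPM (-0.87 ± 0.27, adjusted p = 0.0336, and up to 0.134 without replicate 3 or 4 of ZT12 or replicate 2 or 3 of ZT16). Its relative Nr1d2 fell from 169, 189, 175 and 159 CPM to 117, 115, 107 and 132 CPM (-0.55 ± 0.14, adjusted p = 0.0131).

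Some repressors and outputs of the clock fell. Ciart (gene 229599, chromosome 3, 95878500 to 95882257), a repressor of Arntl and Clock, went from 5.44, 5.87, 9.59 and 5.01 CPM to 1.30, 2.33, 1.33 and 1.85 CPM (-1.45 ± 0.24, adjusted p = 0.000227). Bhlhe41, which competes for the same sites, went from 68.2, 53.4, 80.3 and 61.4 CPM to 23.9, 21.2, 30.4 and 32.4 CPM (-1.26 ± 0.26, adjusted p = 0.0026). The output factor Dbp, uncertain because it shares reads, went from 132, 116, 146 and 96.2 CPM to 29.7, 48.0, 46.3 and 43.1 CPM (-1.54 ± 0.32, adjusted p = 0.00276). In all of these the 4 and 4 values were apart.

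Per3 fell by 0.98 (adjusted p = 0.018, and up to 0.0519 without replicate 2 or 3 of ZT12 or replicate 3 of ZT16) and Cry2 by 0.36 on the log2 scale (adjusted p = 0.046, and up to 0.195 without any 1 replicate of ZT12 or replicate 1 or 2 of ZT16). Clock (0.00), Per1 (-0.47), Per2 (-0.24), Cry1 (0.13), Rora (-0.43), Tef (-0.11), Hlf (-0.52), Bhlhe40 (-0.51) and Npas2 (0.35) did not pass. For Hlf and Npas2 the 4 and 4 values were nonetheless apart.

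Of 9 called clock genes with a promoter entry, 2 hold the ROR element (22.2%), 2 the E-box (22.2%) and 1 the D-box (11.1%). These genes are shown because they hold a match, and the remaining called clock genes hold none in the bases searched. Their 5 stretches from RefSeq (GRCm38.p6) are given 5′ to 3′ on the strand of the gene, with the element in capitals. For Arntl (chr7:113207530-113207559, plus strand) 30 bases are shown around a ROR element that begins at base 31 after the start. That start is an annotated one inside the gene, and 2 of its 6 transcripts hold the bases shown. The others hold the 250 bases before the start, for Nfil3 (chr13:52981040-52981289, minus strand), Ciart (chr3:95882229-95882478, minus strand), Bhlhe41 (chr6:145865421-145865670, minus strand) and Per3 (chr4:151044666-151044915, minus strand). Nfil3 holds the ROR element on the opposite strand, 12 bases before the start; Ciart holds 3 E-boxes, Bhlhe41 holds 1 and Per3 holds 2 D-boxes.
Arntl: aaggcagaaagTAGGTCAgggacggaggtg
Nfil3: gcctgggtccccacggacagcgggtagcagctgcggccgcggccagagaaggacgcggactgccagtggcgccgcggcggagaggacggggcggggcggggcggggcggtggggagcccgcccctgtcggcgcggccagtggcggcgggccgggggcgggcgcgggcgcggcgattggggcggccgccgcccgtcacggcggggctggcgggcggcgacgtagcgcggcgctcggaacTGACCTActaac
Ciart: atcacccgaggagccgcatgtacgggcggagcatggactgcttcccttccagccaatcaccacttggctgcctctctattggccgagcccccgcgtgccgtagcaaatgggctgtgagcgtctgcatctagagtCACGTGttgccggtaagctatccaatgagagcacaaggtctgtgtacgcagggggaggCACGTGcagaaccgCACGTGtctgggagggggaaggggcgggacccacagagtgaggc
Bhlhe41: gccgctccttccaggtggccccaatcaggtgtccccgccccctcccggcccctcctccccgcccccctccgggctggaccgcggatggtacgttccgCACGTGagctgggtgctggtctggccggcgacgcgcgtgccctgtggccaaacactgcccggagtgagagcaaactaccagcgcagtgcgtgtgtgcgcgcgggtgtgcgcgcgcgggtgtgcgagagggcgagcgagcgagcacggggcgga
Per3: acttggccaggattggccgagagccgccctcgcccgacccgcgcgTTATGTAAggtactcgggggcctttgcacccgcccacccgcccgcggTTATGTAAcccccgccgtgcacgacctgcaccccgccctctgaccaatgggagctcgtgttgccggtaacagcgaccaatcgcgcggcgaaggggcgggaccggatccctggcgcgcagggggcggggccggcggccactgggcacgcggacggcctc

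Such matches are not particular to genes that moved. The search covered both strands of 300 bases, 250 before and 50 after each annotated start, in 9612 tested genes with an entry. The ROR element TAGGTCA was found in 2.21% of them, in 2.37% of those that rose and in 2.39% of those that fell. The E-box CACGTG was found in 11.9%, 13.5% and 12.0%, and the D-box TTATGTAA in 0.593%, 0.645% and 0.368%. The FoxO element GTAAACA was found in 3.05%, 4.73% and 2.95%. None of the motifs contains another, and a match is a string of letters, not a measured binding site.

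Among the other large rises, Banp (gene 53325, chromosome 8, 121947972 to 122029260), a nuclear DNA-binding protein, went from 5.37, 6.51, 6.29 and 6.99 CPM to 23.3, 18.8, 18.9 and 17.0 CPM (1.49 ± 0.20, adjusted p = 9.45e-06). Myod1, the myogenic factor, went from 31.1, 24.2, 20.8 and 33.1 CPM to 60.4, 49.4, 43.7 and 70.9 CPM (1.01 ± 0.20, adjusted p = 0.00198), while Pax7, the marker of resting satellite cells, fell by 0.55 (adjusted p = 0.0175, and up to 0.0563 without replicate 4 of ZT12 or replicate 2 of ZT16). The smooth muscle actin Acta2 rose by 1.09 ± 0.21 (adjusted p = 0.00166) and the endothelial junction gene Cldn5 by 0.85 ± 0.19 (adjusted p = 0.00596). Acta2 is itself 1 of the 4 smooth muscle markers, so the higher sum of that list is not separate from its rise. Of 8 endothelial markers only Cldn5 passed, and their sums overlapped (232 to 329 CPM at ZT12, 294 to 401 at ZT16). The part of cell makeup in these rises was not tested.

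Nexn and Trdn, genes of the contractile cell, were among the falls, which made up 5.56% of all genes tested. None of 14 skeletal muscle markers and none of 12 fast-fibre markers passed, and 11 and 9 of them had a log2 change above 0. Nexn (gene 68810, chromosome 3, 152236982 to 152266350), an actin-binding protein of the Z-disc, went from 537, 414, 550 and 497 CPM to 201, 187, 136 and 233 CPM (-1.41 ± 0.30, adjusted p = 0.00352). Trdn (gene 76757, chromosome 10, 33083483 to 33476709), which anchors calsequestrin at the calcium release channel, went from 1486, 1192, 1224 and 1213 CPM to 568, 493, 445 and 846 CPM (-1.16 ± 0.36, adjusted p = 0.0354). For both genes every ZT16 library was below every ZT12 library. The call for Trdn ended without any 1 library other than replicate 4 of ZT16 (adjusted p up to 0.108), and it was the only one to pass among 22 tested genes of calcium handling and excitation. Among these the channel Ryr1 (0.39), the pump Atp2a1 (0.29) and Casq1 (0.05) did not pass. Nexn kept an adjusted p under 0.05 under each alternative run.

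Signalling genes and regulators were among the falls as well. Dusp10, a phosphatase of the stress kinases p38 and JNK, went from 47.0, 38.0, 65.9 and 56.7 CPM to 26.5, 15.7, 15.0 and 17.2 CPM (-1.44 ± 0.31, adjusted p = 0.00366). Tnfaip2, a gene induced by tumour necrosis factor, went from 67.8, 68.1, 71.4 and 70.02 CPM to 35.8, 24.5, 27.0 and 24.98 CPM (-1.29 ± 0.27, adjusted p = 0.00317). Gadd45b, a stress-inducible gene, fell by 1.24 (adjusted p = 0.00646) and the deacetylase Hdac9 by 1.19 on the log2 scale (adjusted p = 0.00322). Replicate 1 of ZT16 was the highest of its time for Dusp10 and Tnfaip2, and still below every ZT12 library.

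Zinc finger genes were frequent among the falls. The largest such fall that met the naming rule was in Zfp942, from 9.19, 9.80, 10.04 and 9.01 CPM to 3.96, 3.62, 2.56 and 5.91 CPM (-1.11 ± 0.26, adjusted p = 0.00743). Of 302 tested genes named Zfp and a number, a group chosen after its values were seen, 70 fell (23.2%, against 5.56% of all genes) and 9 rose, with a median of -0.20. In this group 60 genes share reads with others, often with relatives of near-identical sequence, and 22 of the 70 that fell are among them. Without replicate 1 of ZT16 36 fell, without its replicate 3 18 fell, and the group's median stayed between -0.25 and -0.12 over all alternatives.

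Of 16 tested RNA-binding proteins known to follow body temperature, 5 fell and none rose, where 5.56% of all genes fell and 4.76% rose. The list's median was -0.19, and 2 fell without replicate 1 of ZT16 and 1 without replicate 3 of ZT12. The splicing factor Srsf5 went from 61.9, 77.5, 73.2 and 64.4 CPM to 35.9, 34.7, 44.0 and 54.6 CPM (-0.71 ± 0.17, adjusted p = 0.00731). Luc7l2 fell by 0.65 (adjusted p = 0.0247), Hnrnpdl by 0.42 (adjusted p = 0.0177) and the helicase Ddx5 by 0.38 (adjusted p = 0.0294). These last 3 calls each ended without replicate 3 of ZT12 or replicate 2 of ZT16 (adjusted p up to 0.0822), that of Luc7l2 also without replicate 2 of ZT12 or 3 of ZT16, that of Hnrnpdl without replicate 1 of ZT16, and that of Ddx5 without any 1 library other than replicate 4 of ZT16. The cold-inducible Cirbp (-0.15) and Rbm3 (-0.18) did not pass. Of 22 heat shock genes 3 rose by small amounts: Hsp90ab1 by 0.35 ± 0.08 (adjusted p = 0.00485), Hspa8 by 0.44 ± 0.11 (adjusted p = 0.0124) and Stip1 by 0.27 ± 0.09 (adjusted p = 0.0386). Across the alternatives between 0 and 5 of them rose. The call for Hspa8 ended without replicate 2 of ZT16, with total-count or quantile scaling and on the deposited score (adjusted p up to 0.0569). That for Hsp90ab1 ended on the deposited score (adjusted p = 0.0749). That for Stip1 ended without any 1 library other than replicate 4 of ZT16, with total-count scaling and on the deposited score (adjusted p up to 0.237).

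**Figure D3:**
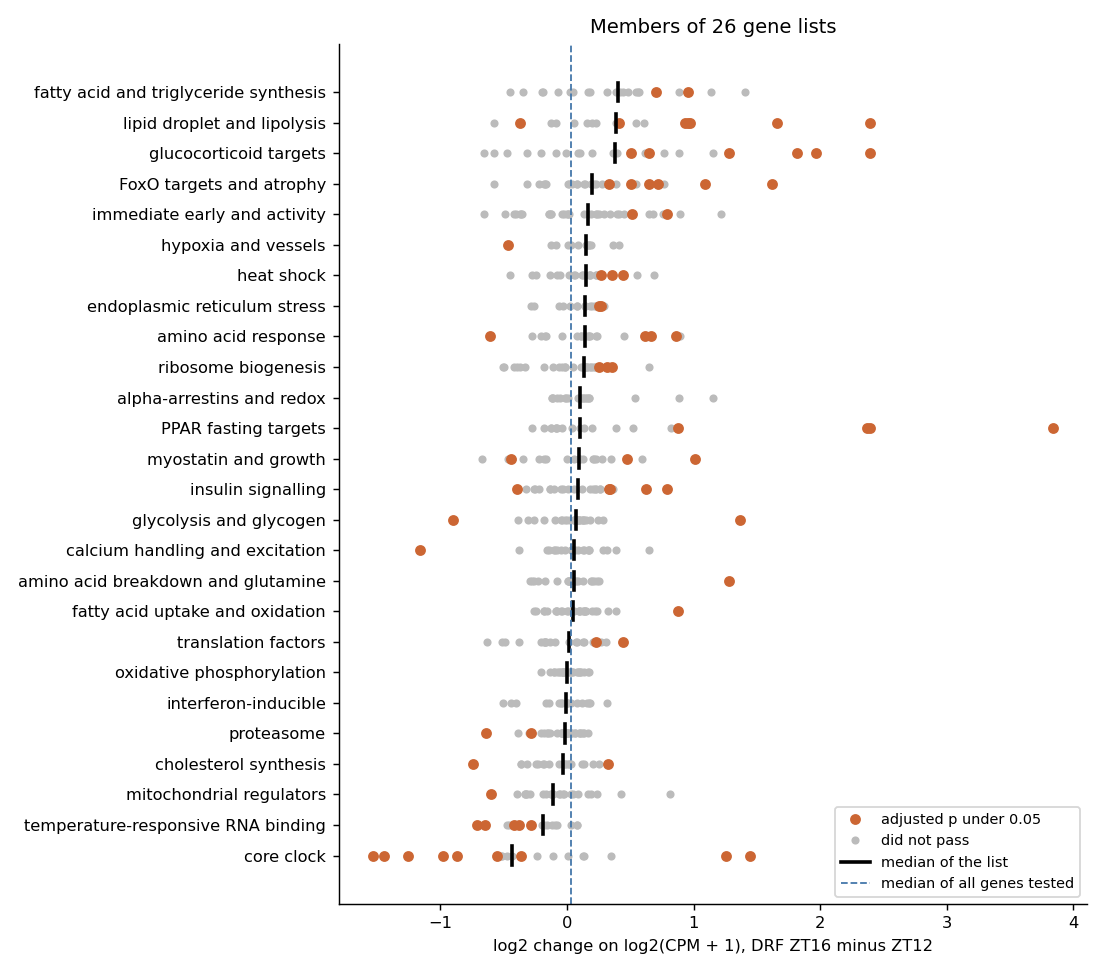
Fitted log2 changes from ZT12 to ZT16 in DRF for the tested members of 26 gene lists, ordered by median. Large points passed the threshold, small grey points did not, black bars are list medians and the dashed line is the median of all genes (0.03). The clock list has the lowest median (-0.43), and oxidative phosphorylation lies within -0.20 to 0.17.

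The counts in lists of growth and stress stand beside a background of 4.76% of all genes rising and 5.56% falling. Of 33 ribosome biogenesis genes 3 rose and none fell, with Heatr1 at 0.36 ± 0.08 (adjusted p = 0.00773). By limma 19 of them had an unadjusted p under 0.05, as did 3325 of all 12025 genes. With total-count scaling none rose (Heatr1 at adjusted p = 0.0589), and with the fat covariate 13 rose and 5 fell. Of 23 translation factors 2 rose, with Eef2, the elongation factor, at 0.44 ± 0.09 (adjusted p = 0.00202). Of 23 genes of the amino acid response 3 rose and 1 fell: Slc38a2, an amino acid transporter, rose by 0.66 ± 0.17 (adjusted p = 0.0133) and Ddit3 fell by 0.61 (adjusted p = 0.0214). Asns (0.61) and Phgdh (0.86) passed at adjusted p-values of 0.0408 and 0.0283 but stood at 0.22 (adjusted p = 0.298) and 0.30 (adjusted p = 0.203) with the fat covariate. Of 35 immediate early genes Jun (0.79 ± 0.23, adjusted p = 0.0259) and Btg1 (0.51 ± 0.11, adjusted p = 0.0031) rose, and Fos (-0.37) and Egr1 (-0.40) did not pass. Of 22 cholesterol genes 1 rose and 1 fell, and the kinase Pmvk of the synthesis pathway rose by 0.33 ± 0.09 (adjusted p = 0.0216). Calls ended without 1 library for Slc38a2 (replicate 3 of ZT12), Ddit3 (replicate 2 or 3 of ZT12, replicate 2 of ZT16), Jun (replicate 1 or 3 of either time) and Pmvk (replicate 2 or 3 of ZT12, replicate 1 or 2 of ZT16), with adjusted p-values up to 0.0598, 0.065, 0.1 and 0.0907. With total-count scaling that of Pmvk was 0.128. They also ended for Phgdh without replicate 1, 2 or 3 of ZT12 or replicate 1 or 2 of ZT16, and for Asns without replicate 1 or 2 of ZT12 or any 1 of ZT16. Of 19 interferon-inducible genes and of 20 alpha-arrestin and redox genes none passed by limma, and 0 and 2 had an unadjusted p under 0.05.

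The same clock step was compared with NRF, where it opens the meal. In NRF 187 genes (1.56%) passed between ZT12 and ZT16. Of the 572 genes that rose in DRF, 425 had a log2 change above 0 over this step in NRF. Of the 669 that fell in DRF, 361 had one below 0. The matching shares of all tested genes were not counted, so these counts are no measure of likeness between the regimens. The step differed between the regimens for 29 genes (0.241%), 13 higher in DRF (0.108%) and 16 lower (0.133%), and 1873 genes had an unadjusted p under 0.05. Of these 29 genes, 20 were among the 1241 called in the DRF step. With total-count scaling 5 were higher and 3 lower. The SE of this difference of differences is larger, with a median of 0.17 against 0.12 for the DRF step. The 6 largest positive differences were in Pdk4 (5.71 ± 1.07, adjusted p = 0.017), Pck1 (4.35 ± 0.80, adjusted p = 0.017), Ucp3 (2.51 ± 0.53, adjusted p = 0.0283), Klhl38 (2.18 ± 0.45, adjusted p = 0.0272), Fbxo32 (2.04 ± 0.43, adjusted p = 0.0283) and Ccn2 (1.72 ± 0.36, adjusted p = 0.0283). In NRF Pdk4 had a log2 change of -1.87 ± 0.76 (adjusted p = 0.26), Ucp3 of -0.14 and Fbxo32 of -0.42, none of which passed. Ccn2, a growth factor of the matrix, fell in NRF by 1.15 (adjusted p = 0.00812) and did not pass in DRF (0.57 ± 0.25, adjusted p = 0.137).

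The 6 largest negative differences were smaller, and several came from a rise in NRF. They were in Pwwp3b (-1.28 ± 0.26), Lrrc38 (-1.02 ± 0.24), an auxiliary subunit of potassium channels, Ccdc69 (-0.96 ± 0.20), Zfp931 (-0.88 ± 0.21, uncertain because it shares reads), the adrenergic receptor Adra1a (-0.87 ± 0.19) and Zbtb26 (-0.84 ± 0.20), with adjusted p-values of 0.0272 to 0.0486. In NRF Pwwp3b, Lrrc38 and Adra1a rose, by 0.84, 0.81 and 0.60. In DRF, of these 6, Ccdc69 fell by 0.66 and Zfp931 by 0.68 (adjusted p = 0.00464 and 0.00419), and the other 4 did not pass. Each of the 12 calls ended under at least 1 alternative. Without replicate 1 of DRF ZT12, replicate 2 of DRF ZT16 or replicate 4 of NRF ZT16 the count by limma was 0, with 1604, 1534 and 1640 genes at an unadjusted p under 0.05.

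Of 19 clock genes none differed between the regimens over this step by limma. An unadjusted p under 0.05 was found for 2 of them, and for 1873 of all 12025 genes. Within NRF 6 clock genes passed, where 1.56% of all genes did. Arntl rose by 1.90 ± 0.21 under NRF against 1.45 ± 0.21 under DRF, and the difference was -0.45 ± 0.30 (adjusted p = 0.46). Ciart changed by -2.50 ± 0.24 under NRF against -1.45 ± 0.24 under DRF, and the difference was 1.05 ± 0.34 (adjusted p = 0.15). Zbtb16 rose in both regimens, by 1.00 ± 0.25 in NRF (adjusted p = 0.0238), with a difference of 0.82 ± 0.36 (adjusted p = 0.261). Banp rose by 1.43 ± 0.20 in NRF, and the difference was 0.06 ± 0.29 (adjusted p = 0.937). These intervals are wide, and a missed threshold does not show that the steps were alike.

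**Figure D4:**
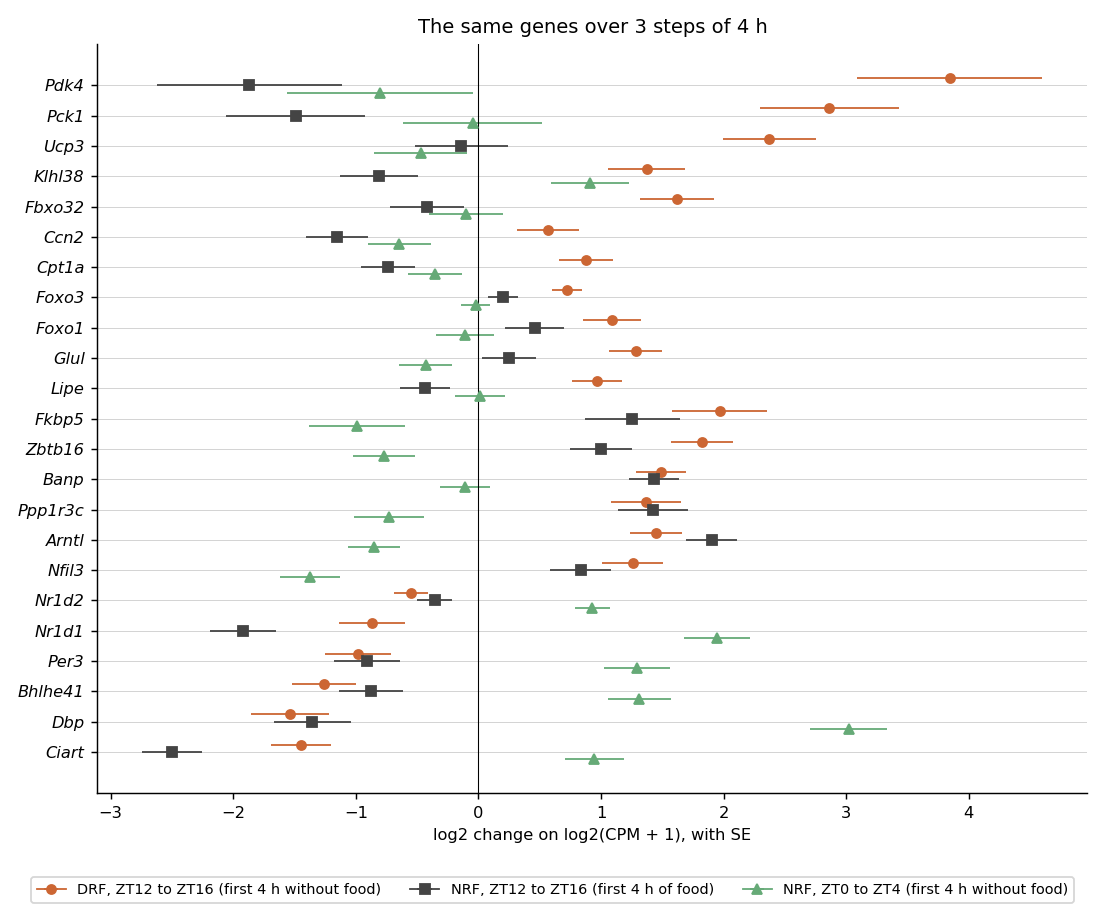
Fitted log2 changes with SE for 23 genes over 3 steps of 4 h: DRF ZT12 to ZT16 (circles), NRF ZT12 to ZT16 (squares) and NRF ZT0 to ZT4 (triangles). From Fkbp5 to Ciart the circles and squares lie on the same side of 0, while Pdk4 is at 3.84 in DRF and at -1.87 and -0.80 in the NRF steps.

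The other NRF step, from ZT0 to ZT4, is the first 4 h of that regimen's own fast and lies in the light phase. In NRF 83 genes (0.69%) passed over it. The DRF step differed from it for 550 genes (4.57%), of which 363 were higher in DRF (3.02%) and 187 lower (1.56%), or 273 and 223 with quantile scaling. The number called was 268 to 326 without replicate 1 or 3 of DRF ZT12, replicate 1 or 2 of DRF ZT16, replicate 1 or 2 of NRF ZT0 or replicate 3 of NRF ZT4. The 6 largest positive differences were in Pdk4 (4.65 ± 1.07, adjusted p = 0.00752), Fkbp5 (2.96 ± 0.55, adjusted p = 0.000688), Pck1 (2.91 ± 0.80, adjusted p = 0.0276), Cyp2e1 (2.90 ± 0.76, adjusted p = 0.0203), Ucp3 (2.84 ± 0.53, adjusted p = 0.000799) and Nfil3 (2.63 ± 0.35, adjusted p = 4.67e-06). In NRF the first 4 h of fast changed Pdk4 by -0.80 ± 0.76 (adjusted p = 0.63), Ucp3 by -0.47 ± 0.38 and Fbxo32 by -0.10 ± 0.30, none past the threshold. For Pdk4 and Ucp3 the difference between the steps passed under all alternatives run, while the calls for Pck1 and Cyp2e1 ended with the fat covariate (adjusted p = 0.104 and 0.0574). Those calls also ended without replicate 1 or 2 of NRF ZT0, and that for Pck1 without replicate 1 of DRF ZT12, replicate 1 or 2 of DRF ZT16 or replicate 2 or 3 of NRF ZT4.

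The 6 largest negative differences were, but for Gadd45b, clock genes: Dbp (-4.56 ± 0.45, adjusted p = 2.77e-09), Gadd45b (-2.91 ± 0.40, adjusted p = 6.27e-06), Nr1d1 (-2.82 ± 0.38, adjusted p = 5.37e-06), Bhlhe41 (-2.57 ± 0.36, adjusted p = 1.01e-05), Ciart (-2.39 ± 0.34, adjusted p = 1.36e-05) and Per3 (-2.27 ± 0.38, adjusted p = 0.000206). Of 19 clock genes 4 were higher and 9 lower in this test, against 3.02% and 1.56% of all genes. In NRF Dbp rose from ZT0 to ZT4 by 3.02 ± 0.32 and Arntl fell by 0.85, the reverse of their course in the DRF fast. Clock time and feeding cannot be told apart in this test, and both tests share the DRF libraries.

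**Figure D5:**
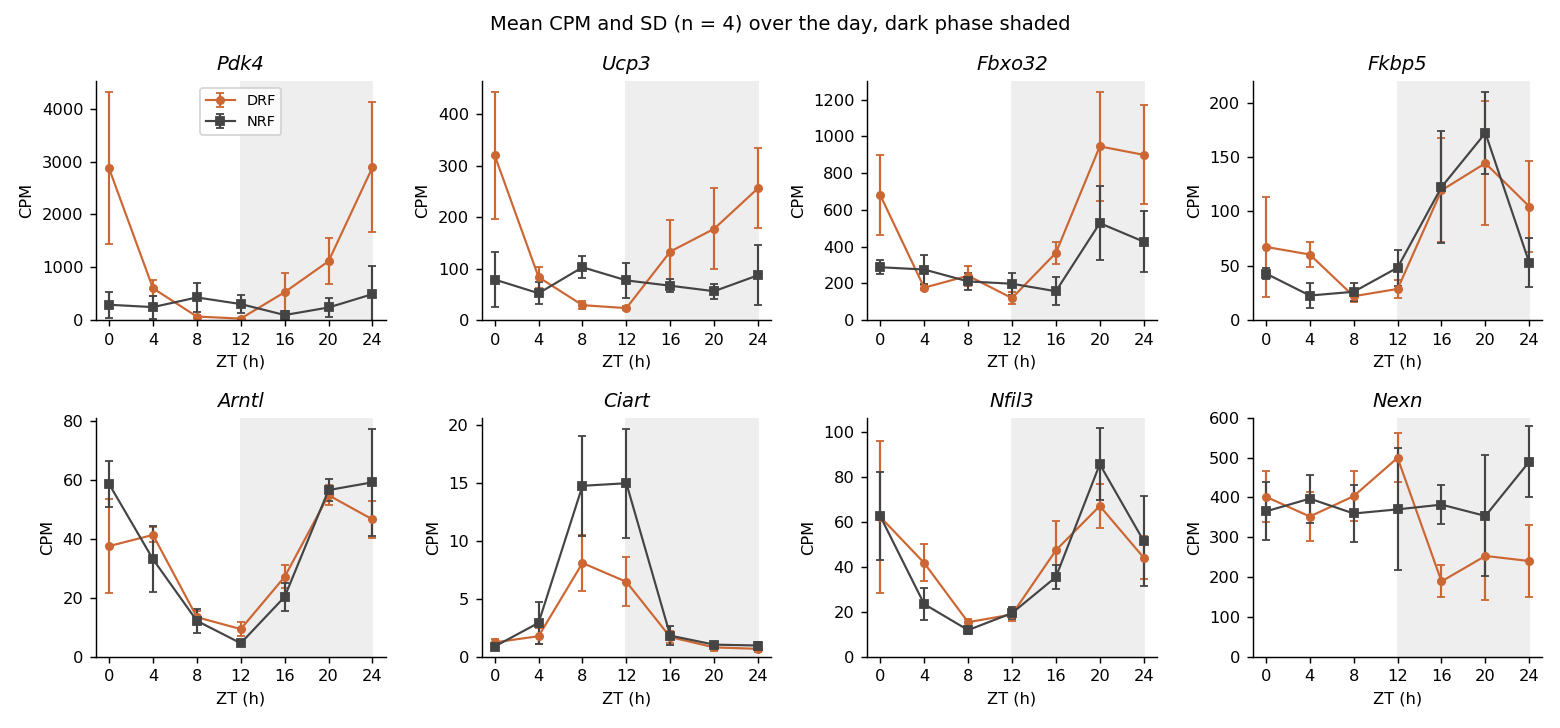
Mean CPM with SD (n = 4, bars cut at 0) at 7 zeitgeber times in DRF (circles) and NRF (squares) for 8 genes, with the dark phase shaded. Pdk4 in DRF goes from 28.1 CPM at ZT12 to 528 at ZT16 and 2891 at ZT24, the means of Arntl and Nfil3 are higher at ZT16 than at ZT12 in both regimens, and Nexn in DRF goes from 500 to 189 CPM between ZT12 and ZT16.

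The rest of the night placed the 4 h step in its course. In DRF Pdk4 averaged 1114 CPM at ZT20 and Fbxo32 946 CPM, the latter a further rise of 1.32 past ZT16 (adjusted p = 0.0201). Zbtb16, Banp and Glul had their highest DRF mean at ZT16, at 214, 19.5 and 738 CPM, and stood at 129, 10.8 and 475 CPM at ZT20; of these the fall of Banp passed (-0.81, adjusted p = 0.0436). Nexn, at 352 to 500 CPM from ZT0 to ZT12, was at 253 CPM at ZT20 and 240.5 CPM at ZT24 in DRF. Its NRF means lay between 354 and 490.1 CPM at all times, and its difference from the NRF step was -1.54 ± 0.43 (adjusted p = 0.112 for the same clock step and 0.0277 for the step from ZT0).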

How the data were processed

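Polyadenylated RNA was copied from random hexamers and read as paired ends on a BGISEQ-500, per the labels' protocols. HISAT2, Bowtie2, RSEM and the builds mm10 and GRCm38.p6 are listed, per the submitters' processing notes, without versions or roles. The deposited table of 19072 genes is headed TPM, but its values are a score that falls with gene length and rises with the logarithm of the count: K × log2(1 + c per 1000000 of N) / L, with c a read count, N a library size, L a gene length and K a constant that scales each library. How the authors derived N was not stated in what was read.

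The score was inverted gene by gene, and counts were recovered for 17443 genes. Genes whose recovered counts are not whole are taken to share reads with others and are called uncertain (1441 of the genes tested). N was 0.854 to 1.21 times a library's reads, which came to 28173235 to 36183625 over the 56 libraries. Counting error is small at this depth for well-expressed genes, where the number of libraries limits precision. It is larger for genes at or below about 1 CPM, such as Angptl4 at ZT12. CPM was computed as c per 1000000 of N. Genes with a mean of at least 1 CPM (12025) were fitted with limma 3.58.1 (trend on) in R 4.3.3 on log2(CPM + 1), over all 56 libraries in 14 groups with 42 residual degrees of freedom. P-values are two-sided and adjusted by Benjamini-Hochberg over all 12025 genes. Both steps were tested on simulated data. A fold on this scale understates the change of low genes.

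Members of 26 gene lists and 12 marker lists (642 genes tested) were counted and summarised by their median, with no test of a list. Named are the 12 largest rises and falls with groups that do not overlap, the 6 largest differences in each direction in the other 2 tests, up to 4 members of each list with the smallest p, members whose missed call matters, and all clock genes; a few genes that met this rule are not reported here. The comparison, the lists and the naming rule were chosen with earlier results of these data known. Symbols and coordinates came from the reference by gene ID, and promoter sequences from RefSeq (GRCm38.p6). No strand-marking step is named, so antisense reads cannot be told apart. Alternatives were library subsets, pseudocount 0.25, no filter, 2 other scalings, the deposited score itself, a gene-length trend, library weights, a replicate block, each library left out, the mean of NRF ZT0 and ZT24 as the start of the NRF fast and, added after seeing the data, adipocyte and slow-fibre covariates. The authors' tables of rhythm tests were not used here.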

Additional observations from a re-analysis of the deposited data

Results flagged for a closer look

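In DRF ZT12, Trdn stood at 1486 CPM in replicate 1, far from the other 3 libraries (1192 to 1224 CPM) relative to their spread. It was the only one of 48 sets of 4 values, those of the 12 largest rises and 12 largest falls, that stood out by this measure (Dixon's ratio), and chance alone singles out about 1 set in 20.

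The change from ZT12 to ZT16 differed by regimen for 29 genes. The difference, DRF minus NRF on the log2 scale, was 5.71 for Pdk4, 4.35 for Pck1, 2.51 for Ucp3, 2.18 for Klhl38, 2.04 for Fbxo32 and 1.72 for Ccn2. It was -1.28 for Pwwp3b, -1.02 for Lrrc38, -0.96 for Ccdc69, -0.88 for Zfp931, -0.87 for Adra1a and -0.84 for Zbtb26.

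The first 4 h without food differed between the regimens for 550 genes. The difference, DRF ZT12 to ZT16 minus NRF ZT0 to ZT4, was 4.65 for Pdk4, 2.96 for Fkbp5, 2.91 for Pck1, 2.90 for Cyp2e1, 2.84 for Ucp3 and 2.63 for Nfil3. It was -4.56 for Dbp, -2.91 for Gadd45b, -2.82 for Nr1d1, -2.57 for Bhlhe41, -2.39 for Ciart and -2.27 for Per3. Clock time differs between these steps, so feeding and clock time cannot be told apart.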

How the results depend on the processing

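The 1241 genes of the DRF step became 2798 with library weights, 2392 with the adipocyte covariate and 433 to 1546 with 1 library left out. The 29 genes of the difference from the same NRF step became 91 with only the libraries compared, 8 with total-count scaling, 1361 with library weights, 235 with the adipocyte covariate and 0 to 52 with 1 library left out. The 550 genes of the difference from the NRF fast became 1284, 320, 2063 and 1232 in the same order, and 268 to 592 with 1 library left out. Fewer libraries were fitted where 1 was left out; for the other shifts the cause was not tested. Of the 80 genes examined by name that passed in the DRF step, 41 passed under every alternative and 39 missed the threshold under at least 1. With 1 library left out 4 (without replicate 4 of ZT16) to 31 (without replicate 2 of ZT16) missed it, 27 without replicate 3 of ZT12, 22 without replicate 3 of ZT16 and 17 without its replicate 1. None changed direction. Of the named genes that did not pass, 10 passed under at least 1 alternative. The share of rises among DRF calls, 46.1%, was 15.8% with total-count scaling, 32.2% on the deposited score and 34.4% with only the 8 libraries.

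The replicate numbers did not pair the libraries: same-numbered libraries of ZT12 and ZT16 had correlations of -0.257 to 0.291, 1 of 4 above 0.1. With a replicate block the counts were 1120, 22 and 478. With 4 libraries a time, small changes of variable genes were not detectable.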
